A study of Mus musculus with 4 samples.

Results

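The members described here are 10 mouse genes of the ETS family of transcription factors, namely Ets1, the gene deleted in the study, and 9 relatives found beside it in heart cells: Ets2, Erg, Fli1, Elk3, Etv6, Elf1, Gabpa, Etv1 and Etv5. They were chosen by symbol, and each symbol matched 1 of the 32285 genes in the count matrices. The question is whether any relative is higher where Ets1 is lost. Transcripts of single cells were counted in 4 libraries of ventricles from mouse embryos at E14.5, 2 control and 2 knockout, and each library pooled 3 ventricles.

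Controls were Tie2Cre;Ets1 fl/+ and knockouts, called eKO, were Tie2Cre;Ets1 fl/fl, all untreated and kept on C57BL/6. The controls carry Cre and 1 floxed allele, so the comparison is of cells that can lose 1 copy of Ets1 with cells that can lose both. Tie2Cre is active in endothelial cells, and also in blood-forming cells and in the endocardium-derived cells of the valve cushions, so recombination is not limited to the endothelium. Sex was not genotyped, pooled embryos cannot be told apart, and the labels place all libraries in 1 batch. Control replicates 1 and 2 held 12641 and 7949 cell barcodes with 124140739 and 76931208 UMIs (unique molecular identifiers, 1 per captured transcript). The eKO replicates 1 and 2 held 10010 and 14951 barcodes with 95131419 and 102872196 UMIs. Pairs of libraries shared 19 to 47 barcode sequences.

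ETS proteins share a DNA-binding domain that reads a GGAA core, so that many members can bind the same places in the genome. Several of them, Ets1, Ets2, Erg, Fli1 and Elk3 among these, are present together in endothelial cells, where enhancers of vascular genes are dense in such cores. Others act mainly as repressors, as Etv6 does, or as targets and effectors of growth factor signalling, as the PEA3 subfamily of Etv1, Etv4 and Etv5 does.

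Cells were assigned 1 by 1 to 6 classes by marker lists that hold no ETS gene, and the UMIs of each class were summed in each library. Endocardium, the inner lining of the heart, gave 1191 and 911 cells in the controls and 1089 and 1881 in eKO, with 9837489 and 7934833 UMIs in the controls and 8751735 and 9406398 in eKO. Coronary endothelium, the lining of the vessels in the heart wall, gave 383 and 216 control cells and 324 and 546 eKO cells, with 5385709 and 3114374 control UMIs and 3897529 and 4438901 eKO UMIs. The remaining classes held 18733 cardiomyocytes, 7175 mesenchymal cells, 742 epicardial cells and 771 leukocytes over the 4 libraries. Clusters named by the same markers placed 99.4% of the endocardial and 95.9% of the coronary cells in the same class. A further 401 endothelial cells scored too alike on both lists and were left out.

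Levels below are CPM, the UMIs of a gene per 1000000 UMIs of its class in that library. These are counts from the 3′ ends of transcripts, so a gene is compared between libraries and classes and not with other genes. Fold changes, SE and adjusted p come from edgeR's quasi-likelihood test on the summed counts, with 2 libraries a group and Benjamini-Hochberg adjustment over all genes tested in the class, and a gene is said to have risen or fallen where the adjusted p was at most 0.05. The test scales totals by TMM, which set the totals above the plain sums in both controls and below them in both eKO libraries of the endothelial classes, so fitted fold changes lie above the ratios of CPM.

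Ets1 (ENSMUSG00000032035, chr9:32636221-32757820, plus strand, GRCm38) fell in both endothelial classes. In endocardium it stood at 277 and 258 CPM in control replicates 1 and 2 and at 119 and 94.2 CPM in eKO replicates 1 and 2, from 2729, 2046, 1038 and 886 UMIs. In coronary endothelium the controls had 371 and 328 CPM and the eKO libraries 183 and 126 CPM. Both eKO libraries lay below both controls in each class, with replicate 2 the lower of the knockouts. The eKO mean was 39.8% of the control mean in endocardium, 106 ± 17.3 against 268 ± 13.8 CPM (SD, n = 2), and 44.2% in coronary endothelium. The log2 fold change was -1.27 (SE 0.136, adjusted p = 0.00271) in endocardium and -1.10 (SE 0.178, adjusted p = 0.00951) in coronary endothelium. Transcripts counted at the 3′ end may lie outside the deleted stretch, so the remaining UMIs do not measure the share of cells that kept the gene.

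The share of cells with an Ets1 UMI moved the same way when each cell was thinned to 2000 UMIs. In endocardium it was 41.2% (exact binomial 95% interval 38.4 to 44.1) and 37.3% (34.2 to 40.6) in the controls against 19.4% (17.1 to 21.9) and 16.4% (14.7 to 18.2) in eKO. In coronary endothelium the controls had 47.0% and 42.9% and the eKO libraries 31.3% and 25%. Cardiomyocytes, taken as the background of free RNA, had 1.22% and 1.00% in the controls and 1.63% and 1.77% in eKO, so every endothelial share lay far above it. Thinning left out 39, 22, 24 and 106 endocardial cells and 2, 6, 11 and 14 coronary cells in the order of control 1, control 2, eKO 1 and eKO 2, and 888, 341, 586 and 531 cardiomyocytes. With all UMIs kept the endocardial shares were 75.8%, 75.5%, 52.4% and 33.5%, at median depths of 6917, 7469, 6982 and 4278 UMIs per cell. The unthinned coronary shares were 90.3%, 91.7%, 72.5% and 54.2%, at depths of 11731, 11869.5, 9803.5 and 6087 UMIs, and those of cardiomyocytes 6.39%, 6.85%, 8.89% and 6.42%, at 11208, 12286, 11760 and 7409 UMIs. The intervals cover counting error only.

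**Figure D1:**
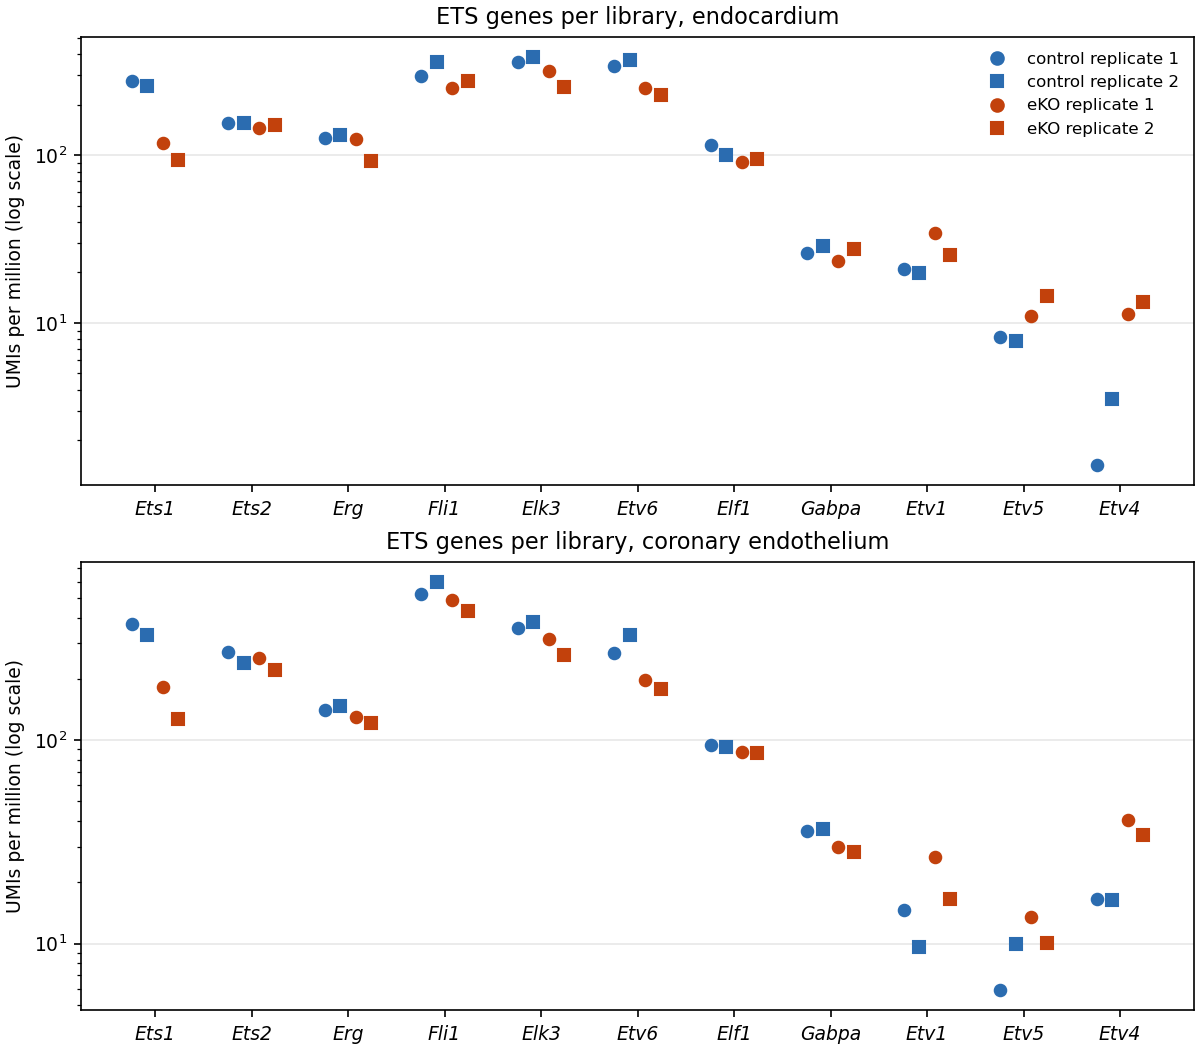
UMIs per 1000000 of class UMIs, on a log axis, for the 10 members and Etv4 in each library, in endocardium (top) and coronary endothelium (bottom); each point is 1 library. The Ets1 points of both eKO libraries sit below both controls, and those of Etv1, Etv5 and Etv4 sit above them.

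Ets2 (ENSMUSG00000022895, chr16:95702075-95721051), the closest relative of Ets1 and a target of MAP kinases, was nearly level. Endocardium had 155 and 156 CPM in the controls against 145 and 152 CPM in eKO, a log2 fold change of -0.00 (SE 0.118, adjusted p = 0.989). Coronary endothelium had 269.97 and 238 CPM against 254 and 221 CPM, a log2 fold change of -0.01 (SE 0.151, adjusted p = 0.981). The coronary libraries overlapped between groups, and the endocardial eKO values lay just below the controls. The SE leaves room for a change of the size of its own value, so a small gain cannot be told from none at this number of libraries.

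Erg and Fli1, sister genes that maintain endothelial identity, were not higher in eKO. Erg (ENSMUSG00000040732, chr16:95359169-95586593) had 126 and 133 CPM in control endocardium and 125 and 92.4 CPM in eKO, a log2 fold change of -0.19 (SE 0.147, adjusted p = 0.504). Its coronary values were 141 and 147 CPM in the controls against 129 and 122 CPM in eKO, a log2 fold change of -0.12 (SE 0.139, adjusted p = 0.753). In each class both eKO libraries lay below both controls, by little in eKO replicate 1 of the endocardium. Without eKO replicate 1 the endocardial change was -0.40 with an adjusted p of 0.0422, over a range of 0.0422 to 0.978 in all alternatives, while without eKO replicate 2 it was -0.0122, and with the trend of gene length removed, described further on, it was 0.01.

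Fli1 (ENSMUSG00000016087, chr9:32422204-32542861) lies 93.4 kb from Ets1 on the same chromosome, as Erg lies 115.5 kb from Ets2. Control endocardium had 298 and 362 CPM of Fli1 and eKO had 250.4 and 279 CPM, a log2 fold change of -0.26 (SE 0.149, adjusted p = 0.379). Coronary endothelium had 522 and 597 CPM in the controls against 486 and 430.1 CPM in eKO, a log2 fold change of -0.21 (SE 0.155, adjusted p = 0.604). Both eKO libraries were the lower in each class, and the differences did not pass the threshold. Leaving out each library in turn gave -0.40, without control replicate 1, to -0.0790, without control replicate 2, in endocardium, and -0.31 to -0.11, without the same libraries, in coronary endothelium. With the gene length trend removed Fli1 was at -0.0565 and -0.0314 in these classes.

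Elk3 and Etv6 are known as repressors, Elk3 as a ternary complex factor that binds with serum response factor and Etv6 as a partner of co-repressors needed for blood and vessel development. Both had lower values in both eKO libraries of both endothelial classes. Elk3 (ENSMUSG00000008398, chr10:93247414-93311135) had 359 and 385 CPM in control endocardium and 316 and 256 CPM in eKO, a log2 fold change of -0.32 (SE 0.140, adjusted p = 0.255). In coronary endothelium it had 354 and 382 CPM against 314 and 260.4 CPM, a log2 fold change of -0.28 (SE 0.153, adjusted p = 0.475). Without eKO replicate 1 the endocardial change of Elk3 was -0.45 with an adjusted p of 0.0313, the lowest of a range that reached 0.747, and without eKO replicate 2 it was -0.20.

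Etv6 (ENSMUSG00000030199, chr6:134035700-134270158) differed most among the 9 relatives in the downward direction. Control endocardium had 343 and 371 CPM and eKO had 251 and 230.3 CPM, 67.3% of the control mean. The log2 fold change was -0.51 (SE 0.128) with an adjusted p of 0.0796. Control coronary endothelium had 269 and 327 CPM and eKO had 197 and 178 CPM, a log2 fold change of -0.58 (SE 0.155, adjusted p = 0.113). The groups were well apart in both classes, yet neither value passed the threshold, and the call turned with the settings. Etv6 passed in 4 of 15 alternatives in endocardium and 5 of 15 in coronary endothelium, some of which are given here. It passed with total counts in place of TMM, at adjusted p of 0.0404 in endocardium and 0.0491 in coronary endothelium. With DESeq2 it passed in endocardium at 0.0286. Other passes came with 1 eKO library left out, replicate 1 in both classes and replicate 2 in coronary endothelium. Over all alternatives the adjusted p ran from 0.0110 to 0.413 in endocardium and from 0.00230 to 0.712 in coronary endothelium.

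The promoters of these relatives, both lower, are shown because they can be read beside each other. Of the members, 8 had a sequence in the RefSeq promoter table (GRCm38.p6, 250 bases before to 50 after the start). Every one of these 8 held the bare core GGAA on some strand, as did 96.0% of all 32851 promoters, so the core alone tells promoters apart poorly. AGGAAG was in 35.4% of all promoters and in 6 of these 8 members. CCGGAAG was in 8.86% of all promoters and, of the members, in Gabpa alone. The form CAGGAAG, searched on both strands and chosen after 4 forms had been counted, was in 13.3% of all promoters. The 8 members have 13 promoters in the table, of which 4 held it, 1 each of Elk3, Erg, Etv6 and Gabpa. Capitals mark it in Etv6 (chr6:134035450-134035749, plus strand) and Elk3 (chr10:93311110-93311409, minus strand), both written 5′ to 3′. A match describes letters and is not a bound site or a cause.
Etv6: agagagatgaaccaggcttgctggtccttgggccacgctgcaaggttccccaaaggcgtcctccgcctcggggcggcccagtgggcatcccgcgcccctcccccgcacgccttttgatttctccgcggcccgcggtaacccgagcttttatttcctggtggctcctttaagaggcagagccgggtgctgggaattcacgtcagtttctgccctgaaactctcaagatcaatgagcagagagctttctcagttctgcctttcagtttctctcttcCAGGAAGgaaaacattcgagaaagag
Elk3: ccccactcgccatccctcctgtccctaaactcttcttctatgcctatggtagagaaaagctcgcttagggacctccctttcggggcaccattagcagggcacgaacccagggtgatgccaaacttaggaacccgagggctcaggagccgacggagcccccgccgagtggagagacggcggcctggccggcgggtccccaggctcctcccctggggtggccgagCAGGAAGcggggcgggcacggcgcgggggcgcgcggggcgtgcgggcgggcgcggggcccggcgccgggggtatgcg

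Elf1 and Gabpa are broadly expressed members, Gabpa being the DNA-binding part of the factor that drives many mitochondrial and housekeeping genes. Elf1 (ENSMUSG00000036461, chr14:79481194-79582494) had 116 and 99.9 CPM in control endocardium and 91.8 and 95.6 CPM in eKO, a log2 fold change of -0.14 (SE 0.124, adjusted p = 0.576). In coronary endothelium it had 94.5 and 92.2 CPM against 87.2 and 86.7 CPM, with a log2 fold change of -0.02 (SE 0.137). Gabpa (ENSMUSG00000008976, chr16:84834925-84863779) had 26.0 and 28.6 CPM in control endocardium and 23.4 and 27.7 CPM in eKO, so the groups overlapped. Its coronary values, 35.6 and 36.6 CPM against 30.0 and 28.2 CPM, did not overlap, with a log2 fold change of -0.23 (SE 0.161, adjusted p = 0.579).

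Etv1 and Etv5, members of the PEA3 subfamily that respond to FGF and ERK signalling, were the relatives with higher values in eKO. Etv1 (ENSMUSG00000004151, chr12:38779380-38870484) had 21.0 and 19.9 CPM in control endocardium and 34.4 and 25.4 CPM in eKO, a log2 fold change of 0.60 (SE 0.169, adjusted p = 0.108). In coronary endothelium it had 14.7 and 9.63 CPM in the controls against 26.7 and 16.7 CPM in eKO, from 79, 30, 104 and 74 UMIs, a log2 fold change of 0.86 (SE 0.262, adjusted p = 0.182). Both eKO libraries were above both controls, and eKO replicate 1 was the highest library in each class. Without eKO replicate 2 the change was 0.78 at an adjusted p of 0.0127 in endocardium and 1.14 at 0.000438 in coronary endothelium, and without control replicate 1 it was 1.23 at 0.0151 in coronary endothelium. Without eKO replicate 1, the highest library, the change was 0.40 in endocardium (adjusted p = 0.155) and 0.50 in coronary endothelium (adjusted p = 0.272). In coronary cells with the arterial genes Gja4 or Gja5 the groups overlapped and the change was 0.11. With the gene length trend removed it was 0.77 in endocardium at an adjusted p of 0.0300, within a range of 0.0127 to 0.444 over all alternatives. In coronary endothelium that range ran from 0.000438 to 0.936.

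Etv5 (ENSMUSG00000013089, chr16:22381309-22439719) had 8.23 and 7.81 CPM in control endocardium and 11.0 and 14.6 CPM in eKO, from 81, 62, 96 and 137 UMIs. The log2 fold change was 0.74 (SE 0.217, adjusted p = 0.122), and without eKO replicate 1 it was 0.94 at an adjusted p of 0.0104, the lowest of a range that reached 0.340, while without eKO replicate 2 it was 0.49. In coronary endothelium 5.94 and 9.95 CPM in the controls stood against 13.6 and 10.1 CPM in eKO, a log2 fold change of 0.72 (SE 0.295, adjusted p = 0.333), with control replicate 2 and eKO replicate 2 nearly level. Leaving out each library in turn gave 0.32, without control replicate 1, to 1.06, without control replicate 2, in coronary endothelium. Both genes were thinly counted in these cells.

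The share of endocardial cells with an Etv5 UMI depended on the depth at which it was read. At 2000 UMIs per cell it was 2.43% (exact 95% interval 1.62 to 3.49) and 2.25% (1.38 to 3.45) in the controls, with 1.31% (0.720 to 2.20) and 2.54% (1.86 to 3.38) in eKO, so the groups overlap. With all UMIs kept it was 6.55% and 6.26% in the controls and 7.62% and 6.80% in eKO, where both eKO libraries are the higher. The mean endocardial share was lower in eKO at both thinned depths, 1.92% against 2.34% at 2000 UMIs and 1.20% against 1.36% at 1000. These means ran against the fold change of Etv5 in endocardium. In coronary endothelium the shares at 2000 UMIs were 1.57% and 0.952% in the controls and 2.88% and 2.82% in eKO, and the unthinned ones, 7.57%, 12.0%, 14.2% and 7.51%, overlapped. At 1000 UMIs per cell the mean coronary share ran the other way, 1.68% in the controls and 1.20% in eKO. Cardiomyocytes had 1.24%, 1.77%, 1.38% and 1.62% after thinning to 2000 UMIs.

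For Etv1 the thinned endocardial shares were 4.08% (exact 95% interval 3.01 to 5.39) and 4.05% (2.85 to 5.56) in the controls and 6.57% (5.16 to 8.23) and 4.68% (3.74 to 5.76) in eKO. The coronary ones were 2.89% and 1.43% in the controls and 6.39% and 3.01% in eKO. Both eKO libraries were the higher in each class, while intervals overlapped between groups. With all UMIs kept the groups overlapped, at 14.3%, 14.7%, 21.7% and 11.2% in endocardium and 17.2%, 11.1%, 24.4% and 12.1% in coronary endothelium. Cardiomyocytes, which express Etv1, had 6.51%, 6.63%, 7.49% and 5.61% after thinning. The cells left out and the depths are those given for Ets1.

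**Figure D2:**
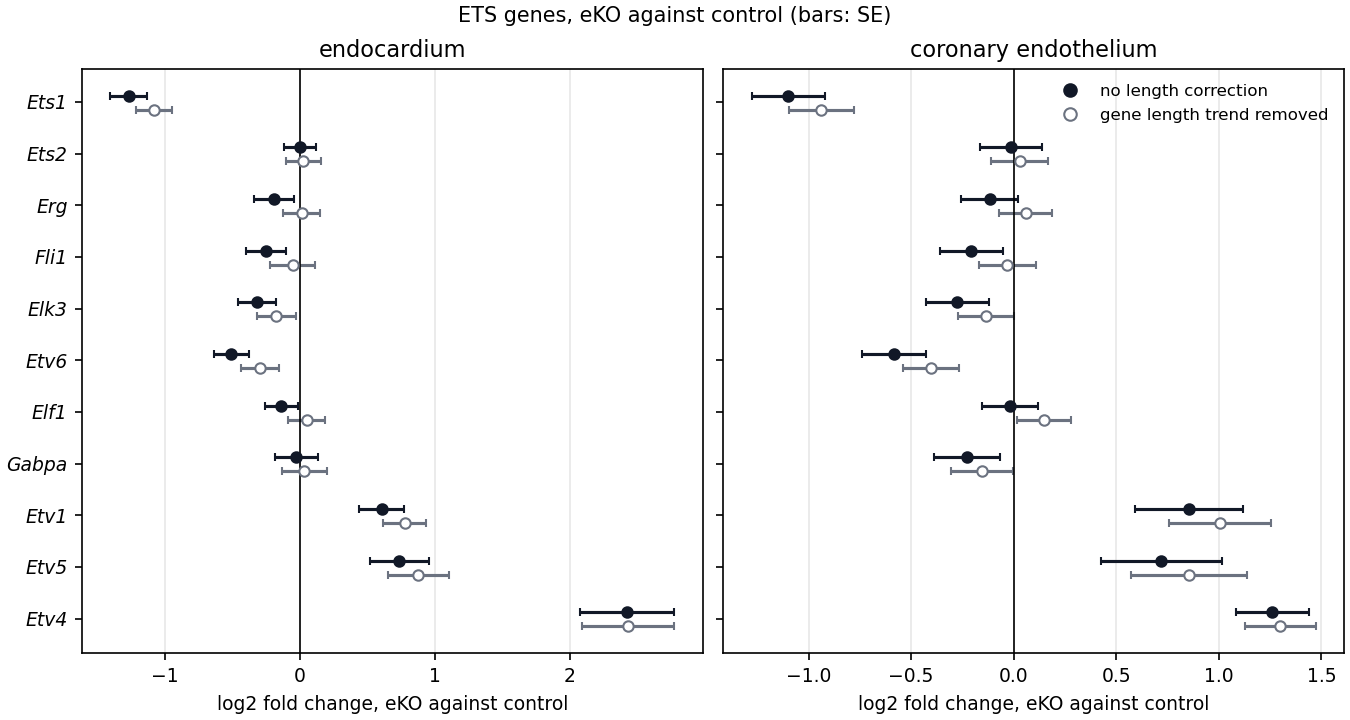
Log2 fold changes of eKO against control with their SE for the 10 members and Etv4, in endocardium (left) and coronary endothelium (right); filled points are fitted without and open points with a correction for genomic length. Ets1 lies near -1 with either fit, Etv6 moves from -0.51 to -0.29 in endocardium, and Etv4 lies highest in each class.

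Among the 9 relatives, 7 had a fitted value below 0 and 2 above it in each endothelial class, but with the gene length trend removed 3 were below and 6 above in endocardium, and 4 below and 5 above in coronary endothelium. That correction also moved the median of all genes, from 0.01 to 0.07 in endocardium and from 0.02 to 0.09 in coronary endothelium, so members near 0, such as Ets2 and Gabpa in endocardium, can cross it from this shift alone. By edgeR 0 of 9 passed the threshold in either class. Of all genes, 284 of 13414 passed it in endocardium, or 2.12%, and 131 of 11304 in coronary endothelium, or 1.16%. At an unadjusted p under 0.05 there were 4 of the 9 in endocardium beside 2594 of all 13414 genes, and 3 of the 9 in coronary endothelium beside 1462 of all 11304 genes. DESeq2 called 1 relative (Etv6) and 325 genes in endocardium, and 0 relatives and 67 genes in coronary endothelium. The edgeR counts over all genes rise when 1 library is left out, to 441 without control replicate 1, 1804 without eKO replicate 1 and 574 without eKO replicate 2 in endocardium, and to 962 and 398 without eKO replicates 1 and 2 in coronary endothelium.

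In each class 8 relatives did not overlap between groups, 6 with both eKO libraries the lower and 2 with both the higher. Of all genes tested, 33.1% lay lower and 18.5% higher in this way in endocardium, and 30.7% and 14.5% in coronary endothelium. The median log2 fold change of the 9 relatives was -0.14 in endocardium and -0.12 in coronary endothelium, beside 0.01 and 0.02 over all genes tested. With total counts in place of TMM these medians were -0.20 and -0.20 for the relatives and -0.06 and -0.07 for all genes. With the length trend removed they were 0.02 and 0.03 for the relatives and 0.07 and 0.09 for all genes.

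The remaining 16 mouse ETS genes include the only family member that rose. Etv4 (ENSMUSG00000017724, chr11:101769742-101785371), the remaining PEA3 gene and a marker of FGF signalling, had 1.42 and 3.53 CPM in control endocardium and 11.3 and 13.4 CPM in eKO, from 14, 28, 99 and 126 UMIs. In coronary endothelium it had 16.5 and 16.4 CPM in the controls against 40.5 and 34.2 CPM in eKO, from 89, 51, 158 and 152 UMIs. Both eKO libraries were above both controls by a wide margin in each class. The log2 fold change was 2.42 (SE 0.347, adjusted p = 0.0104) in endocardium and 1.26 (SE 0.180, adjusted p = 0.00428) in coronary endothelium. Leaving out each library in turn gave 1.86 to 3.20 in endocardium and 1.15 to 1.36 in coronary endothelium, with every adjusted p at 0.00214 or less.

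At 2000 UMIs per cell the share of endocardial cells with an Etv4 UMI was 0.260% (exact 95% interval 0.0537 to 0.759) and 0.8999% (0.389 to 1.77) in the controls, within counting error of the 0.526% and 0.501% of control cardiomyocytes. The eKO endocardium had 2.16% (1.37 to 3.22) and 2.14% (1.52 to 2.93), above the 0.816% and 0.947% of eKO cardiomyocytes. With all UMIs kept the endocardial shares were 1.09%, 2.85%, 7.53% and 6.27%. Coronary shares after thinning were 3.94% and 3.33% in the controls and 6.39% and 5.26% in eKO, with intervals that overlap between groups, and 18.8%, 18.5%, 34.0% and 20.9% with all UMIs kept. The cells left out and the depths are those given for Ets1.

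Of the 16 genes, 8 could be tested in endocardium and 7 in coronary endothelium, and Etv4 alone among them passed. The repressor Etv3 had 20.5 and 18.5 CPM in control endocardium and 13.3 and 12.3 CPM in eKO, a log2 fold change of -0.55 (SE 0.165, adjusted p = 0.125). Its coronary values were 17.6 and 15.4 CPM against 8.72 and 10.8 CPM, a log2 fold change of -0.68 (SE 0.232, adjusted p = 0.241). Fev was tested in endocardium alone, with a log2 fold change of -0.40 (SE 0.360, adjusted p = 0.581). Elf2, Elf4, Elk1, Elk4 and Erf had fold changes from -0.33 to 0.07 in these classes. Elf3, Spib and Spic had 0 UMIs in the endothelial sums of all libraries, and Etv2, Elf5, Ehf, Spi1 and Spdef had at most 14.

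Summed over the 9 relatives, the level was lower in eKO in all 6 classes, those outside the endothelium included. In endocardium the sum was 1452 and 1564 CPM in the controls against 1248 and 1174 CPM in eKO, and in coronary endothelium 1707 and 1839.9 CPM against 1538 and 1354 CPM. The groups did not overlap. The eKO mean was 80.3% of the control mean in endocardium and 81.5% in coronary endothelium, a difference of -297 and -327 CPM. With TMM totals these differences were smaller, as given at the end. Ets1 itself differed by -161 and -195 CPM. In cardiomyocytes the eKO mean of the summed relatives was 79.8% of control, in mesenchyme 83.5%, in epicardium 78.7% and in leukocytes 85.4%. An exact permutation test of the 4 libraries gave p = 0.333 in each class, the smallest that 2 against 2 allows. Over all 25 family members other than Ets1 the eKO sum was 81.8% and 83.5% of control. Ets1 made up 16.0% and 14.2% of the UMIs of the 10 members in control endocardium and 8.68% and 7.43% in eKO. In coronary endothelium it made up 17.9% and 15.1% against 10.6% and 8.54%. Such sums and shares weigh each gene by how well its 3′ end was counted, so they are read between groups only.

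**Figure D3:**
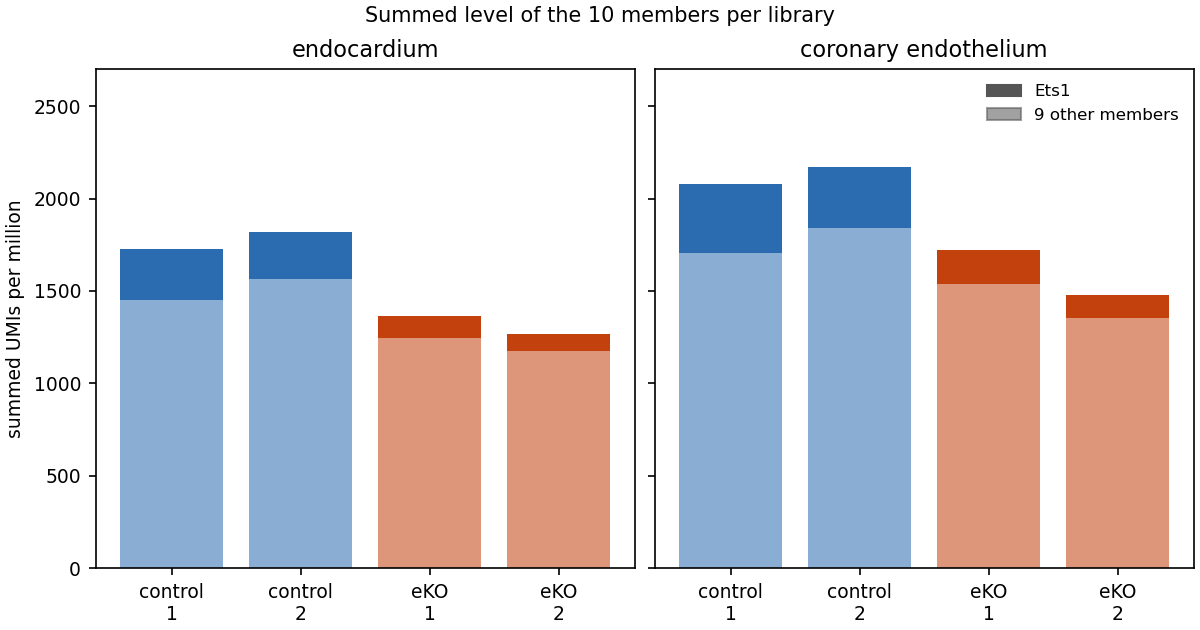
Summed UMIs per 1000000 of the 9 relatives (pale) with Ets1 stacked on top (dark) in each of the 4 libraries, in endocardium and coronary endothelium. Both parts of the bar are shorter in both eKO libraries, where the relatives sum to 1248 and 1174 in endocardium and 1538 and 1354 in coronary endothelium.

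By subfamily, the PEA3 genes Etv1, Etv4 and Etv5 were higher together, with 30.7 and 31.3 CPM in control endocardium and 56.7 and 53.4 CPM in eKO. In coronary endothelium they summed to 37.1 and 36.0 CPM in the controls against 80.8 and 61.1 CPM in eKO. The gain was 24.0 and 34.4 CPM. The ERG subfamily (Erg, Fli1, Fev) stood at 81.2% and 82.9% of control in these classes and the TCF subfamily (Elk1, Elk3, Elk4) at 77.4% and 79.0%. The ELF subfamily (Elf1, Elf2, Elf4) stood at 87.2% and 89.5%, and the repressors Erf and Etv3 at 83.2% and 83.3%. None of these sums is corrected for gene length, and they weigh each gene by how well its 3′ end was counted.

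Gene length moved with genotype in every class. In endocardium the median log2 fold change was 0.15 among genes of up to 10 kb, 0.06 from 10 to 30 kb, -0.07 from 30 to 100 kb and -0.17 over 100 kb. In coronary endothelium it was 0.14, 0.06, -0.05 and -0.14, and in cardiomyocytes 0.16, 0.07, -0.06 and -0.19. Genes over 100 kb gave 17.7% and 18.1% of endocardial UMIs in the controls and 15.7% and 14.5% in eKO, and 12.1% and 13.0% against 11.3% and 10.1% of coronary UMIs. Of the members, 5 span over 100 kb, Etv6 with 234.5 kb, Erg with 227.4 kb, Ets1 with 121.6 kb, Fli1 with 120.7 kb and Elf1 with 101.3 kb. With a trend of level on genomic length removed in each library, Ets1 was at -1.08 and -0.94 in the endothelial classes and Etv6 at -0.29 and -0.40, with adjusted p of 0.323 and 0.232 for Etv6. Elk3 was at -0.18 and -0.14, and Etv5 at 0.88 and 0.85.

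**Figure D4:**
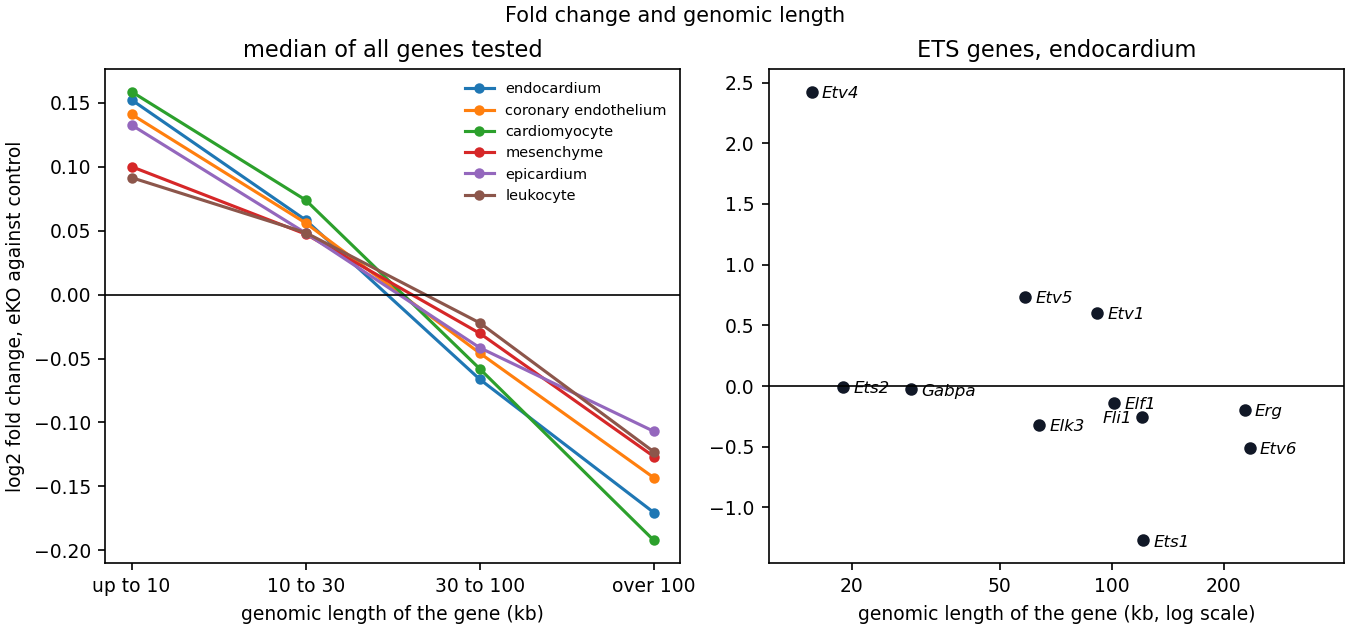
Left, the median log2 fold change of eKO against control over all genes tested, in 4 bins of genomic length, with a line for each class; right, the log2 fold changes of the 10 members and Etv4 in endocardium against genomic length on a log axis. The lines run downward in all 6 classes, from 0.15 to -0.17 in endocardium, and the long genes Erg, Etv6 and Fli1 lie below 0.

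Other measures also differed between the groups. Mitochondrial genes gave 3.84% and 3.93% of endocardial UMIs in the controls and 3.02% and 3.15% in eKO. In coronary endothelium their share was 2.56% and 2.67% against 2.08% and 2.14%. Ribosomal protein genes gave 15.4% and 16.1% of endocardial UMIs in the controls and 17.7% and 16.5% in eKO. Their coronary share was 19.9% and 19.8% against 21.6% and 20.3%. In endocardium the 12 genes of the mesenchyme list summed to 815 and 713 CPM in the controls against 1189 and 1147 CPM in eKO, with 6 of the 12 higher and 2 lower in both eKO libraries, none at 0, and Col3a1 the most abundant at 298, 286, 310.1 and 328 CPM. The 10 genes of the cardiomyocyte list summed to 1003 and 609 CPM against 1013 and 1246 CPM, led by Tpm1 at 257, 202, 293 and 308 CPM. Mesenchyme itself carried the mesenchyme list at 11711 and 11008 CPM and Etv4 at 19.5 and 19.3 CPM in the controls. In coronary endothelium the mesenchyme list summed to 72.2, 33.7, 40.0 and 48.4 CPM and did not separate the groups, with Tcf21 and Mfap4 at 0 in some library. The part of these shifts in the results was not tested.

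Across the 6 classes of the controls most members were highest in endothelium. Ets1 ran in the order coronary endothelium (349.8 ± 30.2 CPM, SD, n = 2), endocardium (268 ± 13.8), mesenchyme (88.5 ± 8.50), leukocytes (16.3 ± 3.02), epicardium (13.5 ± 0.413) and cardiomyocytes (6.31 ± 0.0850), with no overlap between neighbours. Ets2 had the same leading classes, at 254 ± 22.7 and 156 ± 0.547 CPM, then leukocytes at 97.1 ± 12.6 CPM, with epicardium and cardiomyocytes overlapping at the low end. Erg was nearly confined to endothelium, at 144 ± 4.30 CPM in coronary endothelium and 129.7 ± 4.67 CPM in endocardium against 3.96 ± 0.618 CPM in mesenchyme. Its leukocyte value rested on control replicate 1, with 18.4 against 1.57 CPM in control replicate 2.

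Fli1 was highest in coronary endothelium (559 ± 53.0 CPM), then endocardium (330.1 ± 45.8) and leukocytes (274 ± 8.44), and lowest in cardiomyocytes (1.29 ± 0.253). Elk3 did not differ between endocardium (372 ± 18.7 CPM) and coronary endothelium (368 ± 20.3), and was lower in mesenchyme (105 ± 12.0) and the other classes. For Etv6, endocardium (357 ± 19.8 CPM), leukocytes (329 ± 31.9) and coronary endothelium (298 ± 40.9) overlapped as neighbours. Elf1 was highest in leukocytes, at 194 ± 6.62 CPM, with endocardium next at 108 ± 11.1 CPM.

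Gabpa ran from 36.1 ± 0.675 CPM in coronary endothelium, overlapping with epicardium, to 21.9 ± 0.348 CPM in mesenchyme. Etv1 and Etv5 were highest in mesenchyme, at 73.5 ± 6.62 and 43.0 ± 0.307 CPM. In endocardium Etv1 stood at 20.5 ± 0.799 CPM, and Etv5 at 8.02 ± 0.297 CPM, overlapping with coronary endothelium. Etv4 was highest in mesenchyme (19.4 ± 0.170 CPM) and coronary endothelium (16.5 ± 0.106), and its endocardial and cardiomyocyte values overlapped. Epicardium held 0 Etv4 UMIs in both controls.

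**Figure D5:**
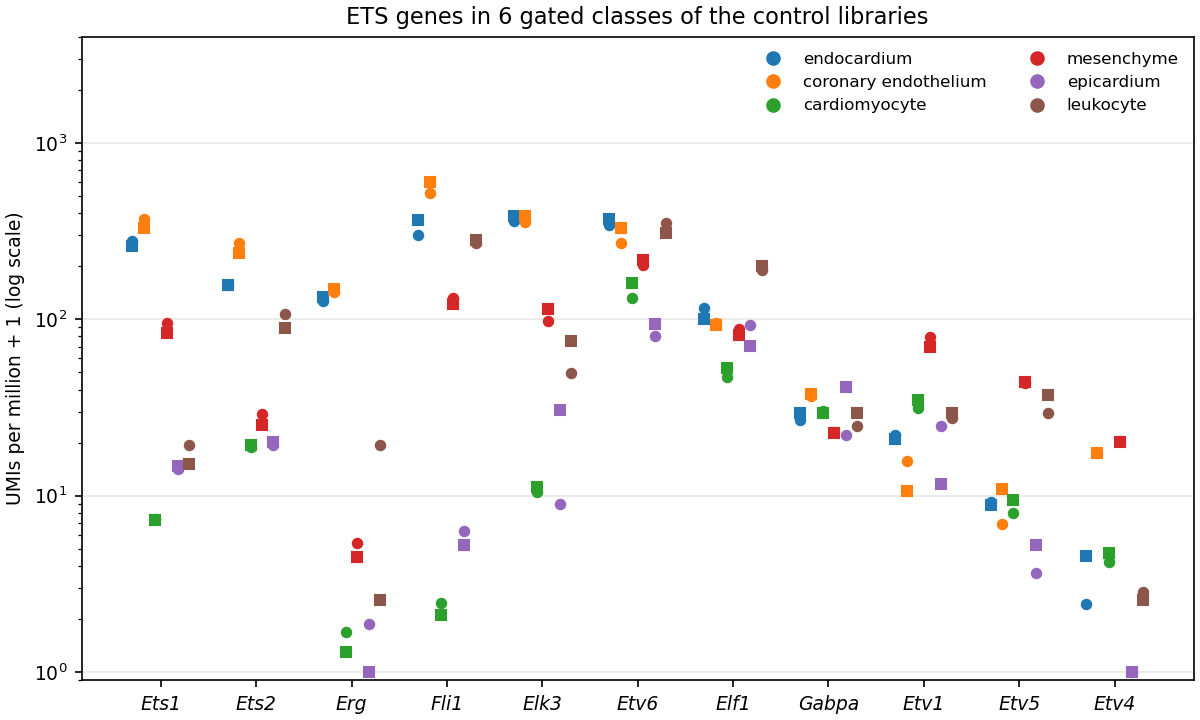
UMIs per 1000000 plus 1, on a log axis, for the 10 members and Etv4 in 6 cell classes of the 2 control libraries (circle, replicate 1; square, replicate 2). Ets1, Ets2, Erg and Fli1 are highest in coronary endothelium, Elf1 in leukocytes, and Etv1 and Etv5 in mesenchyme.

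Outside the endothelium none of the 9 relatives passed the threshold by edgeR or DESeq2 in any of 4 classes. DESeq2 called 31 genes in cardiomyocytes, 131 in mesenchyme, 0 in epicardium and 2 in leukocytes. Of all genes, edgeR called 1 of 15982 in cardiomyocytes (0.00626%), 5 of 14647 in mesenchyme (0.0341%), 4 of 9782 in epicardium (0.0409%) and 2 of 8792 in leukocytes (0.0227%). At an unadjusted p under 0.05 there were 2 of 9 relatives beside 1983 of all genes in cardiomyocytes, and 3 of 9 beside 1678 in mesenchyme. In epicardium it was 2 of the 6 relatives tested beside 624 of all genes, and in leukocytes 1 of 8 beside 434. Leaving out 1 library moved the number of genes called in cardiomyocytes to between 21 (without control replicate 2) and 2304 (without eKO replicate 1), with 64 without control replicate 1 and 310 without eKO replicate 2. The mesenchymal count was 252 and 53 without control replicates 1 and 2 and 31 and 23 without eKO replicates 1 and 2. The epicardial count was 49, 20 and 15 without control replicates 1 and 2 and eKO replicate 2, and the leukocyte count 49, 44 and 1. A group left with 1 library is assumed to vary like the other group.

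Etv6 had lower eKO values in cardiomyocytes, mesenchyme and epicardium, and overlapped between groups in leukocytes. Cardiomyocytes had 132 and 159 CPM in the controls against 116 and 98.5 CPM in eKO, a log2 fold change of -0.32 (SE 0.134, adjusted p = 0.402), which was 0.00 with the length trend removed. Mesenchyme had 202 and 217 CPM against 155 and 139.7 CPM, a log2 fold change of -0.41 (SE 0.119, adjusted p = 0.291), which was -0.17 with the length trend removed. Leukocytes had 352 and 307 CPM against 346 and 269 CPM, a log2 fold change of -0.07 (SE 0.207, adjusted p = 0.995). Epicardium had 79.2 and 93.3 CPM against 76.6 and 54.9 CPM, a log2 fold change of -0.29 (SE 0.207, adjusted p = 0.823). Elf1 was also lower without overlap in cardiomyocytes, mesenchyme and leukocytes. Its log2 fold changes there were -0.33, -0.12 and -0.56 (adjusted p = 0.402, 0.698 and 0.908). Of all genes tested, 6104 of 15982 in cardiomyocytes, 5000 of 14647 in mesenchyme and 1693 of 8792 in leukocytes were lower without overlap. In the same order, 1780, 1832 and 1263 genes were higher without overlap. Lack of overlap alone therefore sets Etv6 and Elf1 little apart from other genes in these classes. Etv4 had higher eKO values in cardiomyocytes and mesenchyme, at 3.21, 3.72, 4.35 and 5.73 CPM in cardiomyocytes (log2 fold change 0.67, SE 0.195, adjusted p = 0.402) and 19.5, 19.3, 28.8 and 30.9 CPM in mesenchyme (0.71, SE 0.124, adjusted p = 0.148). Without eKO replicate 1 the cardiomyocyte change of Etv4 was 0.89 at an adjusted p of 0.00409, the lowest of a range that reached 0.780, and without eKO replicate 2 it was 0.42.

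Ets1 in mesenchyme had 94.6 and 82.5 CPM in the controls against 59.1 and 58.0 CPM in eKO, with no overlap and a log2 fold change of -0.51 (SE 0.1201, adjusted p = 0.213). Of the relatives there, 2 had higher and 5 had lower values in both eKO libraries, beside 1832 and 5000 of 14647 genes. Ets2 had 28.0 and 24.2 CPM against 29.3 and 32.4 CPM, a log2 fold change of 0.33 (SE 0.139, adjusted p = 0.429), and Gabpa 22.1 and 21.6 CPM against 23.7 and 24.1 CPM, a log2 fold change of 0.22 (SE 0.123, adjusted p = 0.514). Erg had 4.39 and 3.52 CPM against 1.97 and 2.13 CPM, a log2 fold change of -0.86 (SE 0.288, adjusted p = 0.352). The make-up of the class also moved, with the 7 genes of the mural cell list at 532 and 855 CPM in the controls against 287 and 254 CPM in eKO, 4 of 7 lower and 0 higher in both eKO libraries, none at 0, and Eln the most abundant at 365, 690.1, 144 and 132 CPM. Of the 4 clusters named mesenchyme, the largest shift was in the cluster with 572 and 1017 control cells and 253 and 319 eKO cells. Their part in the result was not tested. In cardiomyocytes, where few UMIs were counted, Ets1 had 6.37 and 6.25 CPM in the controls against 8.85 and 8.77 CPM in eKO, a log2 fold change of 0.60 (SE 0.126, adjusted p = 0.402). That value was 0.15 when no doublets were removed, and without eKO replicate 1 it was 0.62 at an adjusted p of 0.0104, the lowest of a range that reached 0.849. Epicardial and leukocyte Ets1 rested on 28 UMIs or fewer in every library, and the leukocyte groups overlapped.

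Parts of the classes were also fitted apart, by splits chosen after the data were seen. Mesenchymal cells with Sox9 and no Tcf21, genes of valve cushion cells and of fibroblasts in that order, had Ets1 at 85.1 and 77.0 CPM in the controls against 50.6 and 45.8 CPM in eKO. There Ets1 fell, with a log2 fold change of -0.67 (SE 0.134, adjusted p = 0.0468), beside a background of 0.942% of genes. Cells with Tcf21 and no Sox9 had 107, 93.6, 73.6 and 79.9 CPM, a log2 fold change of -0.30 (SE 0.181, adjusted p = 0.812), beside 0.00995%. Whether these changes differ was not tested, nor was the part of the shift in make-up given above.

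Endocardial cells with a UMI of Prox1, a gene of valve endocardium, had an Ets1 log2 fold change of -1.24 (SE 0.167) and cells without it -1.30 (SE 0.136), beside backgrounds of 1.59% and 2.55%. Coronary cells with the arterial genes Gja4 or Gja5 had -1.003 (SE 0.213) and those without them -1.18 (SE 0.178), beside backgrounds of 2.12% and 1.32%. Etv6 fell in the arterial cells, with 186 and 278 CPM in the controls, 152 and 109.9 CPM in eKO, and a log2 fold change of -0.71 (SE 0.214, adjusted p = 0.0436). In the coronary cells without arterial genes it had 303 and 348 CPM against 214 and 199.5 CPM, a log2 fold change of -0.59 (SE 0.153, adjusted p = 0.0818), and whether these differ was not tested. Etv4 had a log2 fold change of 2.54 (SE 0.653, adjusted p = 0.0694) with Prox1 and 2.36 (SE 0.290, adjusted p = 0.00321) without it, and rose in coronary cells with and without arterial genes, by 1.13 and 1.39.

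Whether the endothelial classes differ in their change was tested in a fit of both with a term for class by condition. It called 229 of 13360 genes, or 1.71%, and no member was among them; without control replicate 1 the count was 41. No member was under an unadjusted p of 0.05 either, and DESeq2 was not run on this term. The coronary minus endocardial difference was 0.13 (SE 0.0945, adjusted p = 0.645) for Ets1, -0.10 (SE 0.0868, adjusted p = 0.743) for Etv6 and 0.22 (SE 0.220, adjusted p = 0.773) for Etv1. For Etv4 it was -1.23 (SE 0.336, adjusted p = 0.0830), a smaller gain in coronary endothelium, and it passed without control replicate 2 at 0.0183 and without eKO replicate 1 at 0.0261, within a range of 0.0183 to 0.739.

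Genes known to carry ETS sites in their endothelial enhancers or promoters were read from a list of 30, of which 8 also served as markers of the classes. It holds Acvrl1 (Alk1), Cldn5, Sox18, Robo4, Esm1 and Kdr, which the paper reports as lower in the coronary endothelium of these mutants. The counts of this list are thus partly set by its choice. In endocardium 28 were tested, 4 fell, and the median log2 fold change was -0.20, beside 154 of 13414 genes that fell and a median of 0.01 over all genes. Sox18, a factor of lymphatic and vascular development, had 37.8 and 28.5 CPM in the controls against 5.60 and 9.25 CPM in eKO, a log2 fold change of -2.09 (SE 0.245, adjusted p = 0.00396). Acvrl1, a BMP receptor, had 7.83 and 8.44 CPM against 2.97 and 2.76 CPM (log2 fold change -1.44, SE 0.254, adjusted p = 0.0244), and did not pass with DESeq2 (-1.43, adjusted p = 0.0501, in a range that began at 1.96e-05). Robo4, a receptor that steadies vessels, had 15.6 and 13.1 CPM against 3.999 and 6.38 CPM (log2 fold change -1.39, SE 0.253, adjusted p = 0.0264), and Flt4, a VEGF receptor, had 23.5 and 29.99 CPM against 12.1 and 11.5 CPM (log2 fold change -1.11, SE 0.182, adjusted p = 0.0164).

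In coronary endothelium all 30 were tested, 1 rose and 1 fell, with a median of -0.03, beside 82 that rose and 49 that fell of 11304 genes and a median of 0.02. Of the genes that the paper reports as lower in this class, Sox18 alone passed the threshold here. Kdr was at -0.00499 and Robo4 at -0.249, so their endocardial changes were not seen at that size in this class. The paper calls the levels of Acvrl1 (Alk1), Robo4 and Esm1 extremely low at this stage. Sox18 had 118 and 91.5 CPM in the controls against 44.4 and 60.2 CPM in eKO. Its log2 fold change was -0.92 (SE 0.182, adjusted p = 0.0305). Apln, a peptide of sprouting vessels that is also 1 of the genes used to assign coronary cells, had 55.3 and 67.8 CPM against 104.7 and 90.8 CPM, a log2 fold change of 0.76 (SE 0.152, adjusted p = 0.0322). Without control replicate 1 Sox18 was at -0.73 with an adjusted p of 0.0863 and Apln at 0.60 with 0.346, the highest of their ranges, which began at 2.38e-09 and 4.42e-06. With a stricter gate neither passed, Sox18 at -0.90 (adjusted p = 0.0546) and Apln at 0.74 (adjusted p = 0.0511), nor did Apln with DESeq2 at 0.75 (adjusted p = 0.0652).

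Of 11 genes induced by FGF and ERK signalling, Etv4 rose in both classes and the other 10 did not pass the threshold, beside 130 of 13414 genes that rose in endocardium and 82 of 11304 in coronary endothelium. The medians were -0.22 in endocardium and -0.28 in coronary endothelium, with 4 of 11 fold changes above 0 in endocardium and 5 of 11 in coronary endothelium, Etv4 included. Dusp6, chosen after its values had been seen, a phosphatase induced by ERK, had 65.5 and 59.9 CPM in control endocardium and 41.7 and 47.3 CPM in eKO, a log2 fold change of -0.43 (adjusted p = 0.137). Its coronary values were 71.1 and 64.2 CPM against 45.7 and 42.4 CPM, a log2 fold change of -0.54 (adjusted p = 0.119).

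Of 16 partners of ETS proteins, 2 fell in endocardium, where the median was -0.23, beside 154 of 13414 genes and a median of 0.01 over all genes. Fos, a subunit of AP-1, had 436 and 293 CPM in the controls against 157 and 129.6 CPM in eKO, a log2 fold change of -1.28 (SE 0.185, adjusted p = 0.0105). Junb, another AP-1 subunit, had 218 and 168 CPM against 86.6 and 109.9 CPM (log2 fold change -0.91, SE 0.167, adjusted p = 0.0278). Both are early genes that also respond to tissue dissociation. In coronary endothelium 0 of 16 passed, beside 131 of 11304 genes, and the median was -0.19.

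Of 10 matrix genes known as ETS targets, 8 were tested in endocardium and 9 in coronary endothelium, with medians of 0.07 and -0.12. In endocardium 1 rose and 1 fell, beside 130 and 154 of 13414 genes, and in coronary endothelium 1 rose, beside 82 of 11304. Mmp2, a matrix protease, fell in endocardium from 93.3 and 86.0 CPM to 45.6 and 48.2 CPM (log2 fold change -0.87, SE 0.124, adjusted p = 0.0104). The protease inhibitor Timp1 rose there from 27.0 and 29.2 CPM to 44.0 and 48.2 CPM (log2 fold change 0.78, SE 0.138, adjusted p = 0.0247), but with a stricter gate it was 0.63 (adjusted p = 0.0591, in a range that began at 0.000149). In coronary endothelium Timp1 rose from 14.5 and 15.4 CPM to 25.1 and 33.8 CPM (log2 fold change 1.08, SE 0.208, adjusted p = 0.0281). This did not pass with DESeq2 at 1.07 (adjusted p = 0.171) or with a stricter gate at 0.89 (adjusted p = 0.0808), in a range that began at 1.64e-06.

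The 4 genes whose control levels were most like those of Ets1 were Prex2, Plekhg1, Zdhhc18 and Tmod3, with Pearson r from 0.973 to 0.975 on log2(CPM + 1). This was taken over 12 sums, of 6 classes in 2 control libraries, among 12265 genes, and classes of a library share its depth, so r is a description. Of the members, Elk3 was nearest at 0.942, then Erg at 0.896, Fli1 at 0.802 and Ets2 at 0.759. Etv6 had 0.635 and Etv4 0.570, while Elf1 (0.221), Gabpa (0.144), Etv5 (0.0563) and Etv1 (-0.210) had low values. In endocardium Prex2, a guanine exchange factor, had a log2 fold change of -0.56 (adjusted p = 0.0419), while Plekhg1, Zdhhc18 and Tmod3 did not pass.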

How the data were processed

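The authors deposited 4 count matrices of UMI counts per gene and cell barcode, made with Cell Ranger 7.1.0 on the mouse genome mm10, and named Seurat 4.3.0 for their own analysis. The matrices were read with Python 3.11.15, numpy 2.4.6, pandas 2.3.3 and scipy 1.17.1. A barcode was kept if it held between 200 and 7000 genes and if no more than 20% of its UMIs were mitochondrial, 35% from ribosomal protein genes and 2% from haemoglobin genes. Doublets were removed by likeness to simulated doublets (2 per cell, 90 neighbours, 0.8% expected per 1000 cells), which left 38003 cells, of which 33962 or 89.4% fell in the 6 classes. A class needed a marker score of at least 0.3 (0.5 for cardiomyocytes) and a lead of 0.15, or of 0.1 between the endothelial classes. Clusters made with scikit-learn 1.9.0 and igraph 0.11.9 were used to check the classes, and matplotlib 3.10.9 drew the figures.

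UMIs were summed per class and library, and eKO was set against control with edgeR 4.0.16 (limma 3.58.1, R 4.3.3), using TMM scaling, filterByExpr and the quasi-likelihood F test, with Benjamini-Hochberg adjustment over all genes tested at 0.05. A fit with library, class and class by condition terms compared the endothelial classes. Summed CPM were compared by an exact permutation test. The fit of eKO against control was tested on simulated data in the endothelial classes, where it found most changes of log2 1 but few of 0.5, with median estimates near the simulated sizes and false calls near the rate set by the threshold. The class by condition fit was not tested in this way. Genes of a list are named where they passed the threshold or belong to the ETS family, and the genes most like Ets1 by their rank, of which 1 is not reported here. Dusp6 was chosen after its values had been seen. The members and lists were chosen with earlier results of these data known. Genomic lengths came from GENCODE vM21 on GRCm38, which held 99.6% of the gene identifiers, and promoters from RefSeq GRCm38.p6.

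Alternatives were total count scaling, DESeq2 1.42.0, no filter on low counts, a replicate block, each library left out, no doublet removal, a stricter cell filter, clusters or a stricter gate in place of the gate, and removal of a trend with gene length. Subclasses by Prox1, by Gja4 and Gja5, and by Tcf21 and Sox9 were added after seeing the data.

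With 2 libraries a group, each of 3 pooled ventricles, small changes cannot be told from none, and variation between single embryos is not measured. Replicate 2 of eKO was sequenced to the lowest depth per cell, with a median of 5632 UMIs per barcode against 8222 to 8630 in the others. Counts from transcript ends do not measure protein, isoforms or the deleted exons. Classes rest on marker genes, and free RNA from other cells was not subtracted. All libraries are of 1 stage, E14.5, so no course over time can be read. A missing change in RNA does not speak to protein activity or binding.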

Additional observations from a re-analysis of the deposited data

Results flagged for a closer look

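Among listed genes, 7 had changes that differed between the endothelial classes, tested with the class by condition term of edgeR, which called 229 of 13360 genes in all. The coronary minus endocardial difference in log2 fold change was 1.13 for Robo4 (adjusted p = 0.0153) and 1.15 for Sox18 (adjusted p = 0.000820). It was 0.42 for Junb (adjusted p = 0.0274) and 1.03 for Fos (adjusted p = 1.53e-05). In each of these 4 the endocardial change was the lower, as with Sox18 at -2.09 in endocardium and -0.92 in coronary endothelium. Fos and Junb respond to tissue dissociation, whose part in the result was not tested. The other 3 were Kdr (0.44), Clec14a (0.53) and Timp3, which ran the other way (-0.48).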

How the results depend on the processing

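Of 556 alternative values for 39 gene results, 537 kept the direction, 19 reversed it, 10 lost and 25 gained the call. The Ets1 change kept direction and call in all 15 alternatives of each endothelial class, from -1.42 to -1.08 in endocardium and from -1.37 to -0.87 in coronary endothelium. Etv4 rose in 14 of 15 endocardial alternatives, all but cells with Prox1 (adjusted p 4.95e-17 to 0.0694), and in 15 of 15 coronary ones.

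Reversed values lay near 0. Ets2 in endocardium was 0.0106 with DESeq2, 0.0239 with the gene length trend removed and 0.0191 in cells with Prox1, and -0.0690 to 0.0570 with libraries left out. Gabpa in endocardium was 0.0293 with the length trend removed and 0.0419 in cells without Prox1, and -0.18 to 0.11 with libraries left out. With the length trend removed Erg was 0.0115 in endocardium and 0.0587 in coronary endothelium, Elf1 0.0479 and 0.15, Ets2 in coronary endothelium 0.0284, and Etv6 in cardiomyocytes 0.00371. Elf1 in coronary endothelium was 0.0315 with clusters and 0.0195 in cells without Gja4 and Gja5, and coronary Ets2 was -0.11 to 0.0703 with libraries left out. The length trend removed is by construction what moved those values. For the others the cause was not tested.

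The number of genes past the threshold moved more. In endocardium it was 284, and 1111 without a filter on low counts, 429 with the replicate block and 418 to 1804 with libraries left out. In coronary endothelium it was 131, and 67 with DESeq2, 354 without the filter, 81 with a stricter gate, 171 with the block and 168 to 962 with libraries left out. In cardiomyocytes it was 1, and 31 with DESeq2, 372 without the filter, 62 with the block, 21 to 2304 with libraries left out, and 0 with no doublets removed, a stricter cell filter or the length trend removed. In mesenchyme it was 5, and 12 with total counts, 131 with DESeq2, 70 without the filter, 79 with the block, 11 with no doublets removed, 3 with clusters, 3 with a stricter gate and 23 to 252 with libraries left out. In epicardium it was 4, and 0 with DESeq2, 39 without the filter, 8 with the block, 14 with clusters, 0 with the length trend removed and 6 to 49 with libraries left out. In leukocytes it was 2, and 49 without the filter, 2 with the block, 1 with clusters, 1 with a stricter gate and 1 to 49 with libraries left out. The class by condition count was 229, and 41 to 216 with libraries left out. The cause was not tested.

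The split of these genes moved with scaling. In endocardium 130 rose and 154 fell, against 137 and 284 with total counts and 199 and 115 with the length trend removed. In coronary endothelium 82 rose and 49 fell, against 75 and 94, and 93 and 31.

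The replicate block pairs libraries by number. Same-numbered libraries had correlations of -0.01 to -0.09 across genes, so no pairing by number was seen. With 2 libraries a group, a correlation over all genes cannot exclude an effect shared by number in some genes. With the block Etv1 passed in coronary endothelium (adjusted p = 0.0369, in a range of 0.000438 to 0.936).

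Some calls of listed genes were lost, as given beside each. Those of Apln and Sox18 in coronary endothelium were lost without control replicate 1, as well as in the settings below. Acvrl1 in endocardium had an adjusted p of 0.0501 with DESeq2, and Timp1 there 0.0591 with a stricter gate. In coronary endothelium Timp1 had 0.171 with DESeq2 and 0.0808 with a stricter gate, Apln 0.0652 and 0.0511, and Sox18 0.0546 with a stricter gate. Their lowest adjusted p over all alternatives were 1.96e-05, 0.000149, 1.64e-06, 4.42e-06 and 2.38e-09.

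The summed difference of the 9 relatives was -353 to -241 CPM in endocardium and -419.6 to -235 CPM in coronary endothelium with libraries left out, and -240.04 and -237 CPM with TMM totals. The fall in the share of endocardial cells with Ets1 was -21.4 points at 2000 UMIs, -11.6 at 1000 and -32.7 with all UMIs.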
